A study of Mus musculus with 16 samples.

Results

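The genes described here carry peptide antigens from the cytosol to the cell surface on MHC class I molecules. They are B2m, Tap1, Tap2, Tapbp, Psmb8, Psmb9, Psmb10, Psmb5, Psmb6 and Nlrc5, a list of 10 genes chosen by name, with earlier results of these data known. All 10 were among the 19938 genes that had an array row annotated with 1 gene symbol, and the brightest such row was taken for each gene. Hepatic RNA from 16 samples was read on Affymetrix whole-transcript arrays, 1 array each: 7 samples were of Pdgf-c transgenic mice and 9 of wildtype mice, all C57BL/6. The transgene's product, platelet-derived growth factor C, activates PDGF receptors on fibroblasts and hepatic stellate cells. The labels give no promoter for the transgene, no age and no sex, and leave unsaid whether each sample is a different animal; p-values then cover the spread among samples, which may be technical. They name the material stromal cells, whereas the protocol describes total hepatic RNA. The hepatocyte gene Alb averaged 13.54 in transgenic and 13.56 in wildtype samples on the log2 scale, so the values are read here as those of whole liver.

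MHC class I molecules present short peptides to CD8 T cells. Proteasomes cut cytosolic proteins into these peptides, the TAP transporter pumps them into the endoplasmic reticulum, and a loading complex that includes tapasin fits them onto heavy chains paired with beta-2-microglobulin. In interferon-exposed cells and in leukocytes, the 3 catalytic subunits of the constitutive 20S core (encoded by Psmb5, Psmb6 and Psmb7) are replaced by inducible subunits (encoded by Psmb8, Psmb9 and Psmb10), which gives the immunoproteasome. Hepatocytes contain mostly the constitutive form at rest.

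Promoter windows of 4 genes are shown: Tap1, whose window overlaps that of Psmb9, Psmb8 and B2m, which hold interferon-related motifs, and Psmb5, a constitutive subunit, for contrast. RefSeq windows (GRCm38.p6), from 250 bases before to 50 after the start site, were found for 8 of the 10 genes. They were searched on both strands for GAAA, any 2 bases and GAAA, the core of the interferon-stimulated response element, for TTCNNNGAA, the interferon-gamma activated site, and for CCAAT, the box bound by NF-Y. Capitals mark these matches, which did not overlap each other.
Tap1, chr17:34187306-34187605, plus strand: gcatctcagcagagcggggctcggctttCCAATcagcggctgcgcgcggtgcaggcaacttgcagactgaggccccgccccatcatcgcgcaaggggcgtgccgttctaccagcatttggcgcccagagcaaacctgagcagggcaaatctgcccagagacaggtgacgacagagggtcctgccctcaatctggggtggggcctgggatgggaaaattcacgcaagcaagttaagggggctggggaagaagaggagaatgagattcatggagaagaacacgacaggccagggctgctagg
Psmb8, chr17:34197945-34198244, plus strand: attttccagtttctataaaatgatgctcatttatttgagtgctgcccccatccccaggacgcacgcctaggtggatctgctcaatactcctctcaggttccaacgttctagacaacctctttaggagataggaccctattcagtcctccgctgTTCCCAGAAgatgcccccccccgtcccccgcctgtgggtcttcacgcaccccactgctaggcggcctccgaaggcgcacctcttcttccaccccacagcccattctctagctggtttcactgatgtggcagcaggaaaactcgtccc
B2m, chr2:122147437-122147736, plus strand: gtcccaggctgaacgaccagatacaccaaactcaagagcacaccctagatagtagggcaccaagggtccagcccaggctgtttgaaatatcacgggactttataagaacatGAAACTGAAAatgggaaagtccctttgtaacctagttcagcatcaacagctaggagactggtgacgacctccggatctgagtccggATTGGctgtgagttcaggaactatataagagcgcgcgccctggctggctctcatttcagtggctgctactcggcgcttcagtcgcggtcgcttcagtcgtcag
Psmb5, chr14:54617946-54618245, minus strand: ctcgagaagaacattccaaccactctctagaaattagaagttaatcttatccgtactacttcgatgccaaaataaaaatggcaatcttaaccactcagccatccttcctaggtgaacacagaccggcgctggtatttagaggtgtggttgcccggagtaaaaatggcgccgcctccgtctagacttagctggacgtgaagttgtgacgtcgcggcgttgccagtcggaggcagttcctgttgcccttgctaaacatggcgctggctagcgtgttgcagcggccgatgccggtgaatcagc

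The Tap1 window is also most of the Psmb9 promoter. Tap1 and Psmb9 are transcribed away from each other from start sites 226 bases apart, and their windows share 275 bases. In RefSeq's order of protein-coding genes Psmb9, Tap1, Psmb8 and Tap2 follow each other on chromosome 17, and 5 of the 10 genes lie on that chromosome. The Tap1 window held a CCAAT box in the shared stretch, and the Psmb8 window held 1 interferon-gamma activated site. B2m had 1 response element core and 1 inverted CCAAT box. The Tapbp window held 2 CCAAT boxes and no other match. The windows of Psmb5, Psmb6 and Psmb10 held none of the 3 motifs. Among all 32851 windows of this length, 3.44% held the response element core, 8.30% the activated site and 37.4% a CCAAT box. A match is a string of letters only, and these windows do not reach distal elements.

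Levels are log2 intensities that the authors made with GCRMA, and differences are transgenic minus wildtype on that scale with the standard error (SE) of the fit. A gene was called at an adjusted p of 0.05 (limma, Benjamini-Hochberg over all 35557 rows). By this rule 12.1% of all genes were higher and 11.1% lower in the transgenic livers (23.2% in either direction), and the median gene differed by -0.04. Among the 10 class I processing genes, 3 were called higher, 1 was called lower and 6 were not called. Across all rows, arrays of the transgenic group correlated at r of 0.984 to 0.991 and those of the wildtype group at 0.982 to 0.991. Transgenic array 1 stood apart for the constitutive proteasome: over the 31 measured genes of Psmb5, Psmb6, the other 20S subunits and the 19S particle it was the lowest transgenic array in 28. Transgenic array 6 was the highest transgenic array in 7 of the 10 class I processing genes. Where a call of these 10 genes changed without either array, the value is given.

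The 3 inducible catalytic subunits were the genes that rose. Psmb9, which replaces the caspase-like subunit, had a lowest, median and highest level of 8.32, 8.59 and 9.18 in transgenic livers, against 7.85, 8.13 and 8.31 in wildtype livers. Every transgenic array was above every wildtype array, although the lowest transgenic and the highest wildtype value lay close together. The difference was 0.54 ± 0.101 (SE, 7 against 9 arrays), or 1.46-fold, with a limma adjusted p of 0.000703. Psmb8, which replaces the chymotrypsin-like subunit, ranged from 8.62 to 9.31 with a median of 8.82 in transgenic livers, against 8.35 to 8.61 with a median of 8.56 in wildtype livers. Again the groups did not overlap, and transgenic array 6 was far above the other 6. Psmb8 was 1.28-fold higher (0.35 ± 0.0812, limma adjusted p = 0.00414). All transgenic arrays exceeded all wildtype arrays in 5.43% of all genes, so separation of the groups alone was not rare.

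Psmb10, which replaces the trypsin-like subunit, changed least of the inducible subunits and its groups overlapped. Its levels in transgenic livers were 9.76 at the lowest, 9.83 at the median and 10.1 at the highest, against 9.39, 9.67 and 9.83 in wildtype livers. All 7 transgenic arrays lay above the wildtype mean, and 4 lay above every wildtype array. The difference was 0.23 ± 0.0668, a 1.17-fold rise with a limma adjusted p of 0.0212. Without transgenic array 6 it was 0.19 with an adjusted p of 0.0503, and after median centring of the arrays it was 0.18 with an adjusted p of 0.0676.

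Of the constitutive counterparts, Psmb5 fell, Psmb6 was not called and the call of Psmb7 depended on the setting. Psmb5, the chymotrypsin-like subunit that Psmb8 replaces, had levels of 11.06, 11.17 and 11.22 (lowest, median, highest) in transgenic livers, against 11.23, 11.34 and 11.42 in wildtype livers. Every transgenic array was below every wildtype array, as held for 3.65% of all genes. Psmb5 was 1.14-fold lower (-0.19 ± 0.0328, limma adjusted p = 0.00045), and -0.17 without transgenic array 1 (adjusted p = 0.000806). Psmb6, the caspase-like subunit that Psmb9 replaces, ranged from 11.27 to 11.49 in transgenic livers, against 11.42 to 11.55 in wildtype livers. Its 7 transgenic arrays were all below the wildtype mean but the groups overlapped, and its difference of -0.09 ± 0.0342 was not called (95% interval -0.16 to -0.02, limma adjusted p = 0.077). It was called without transgenic array 5 (-0.11, adjusted p = 0.0442) and with arrays centred on their medians (-0.14, adjusted p = 0.0239). Psmb7, the trypsin-like subunit that Psmb10 replaces and not among the 10, differed by -0.19 ± 0.0633 (limma adjusted p = 0.0396), and by -0.14 with an adjusted p of 0.0616 without transgenic array 1.

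**Figure D1:**
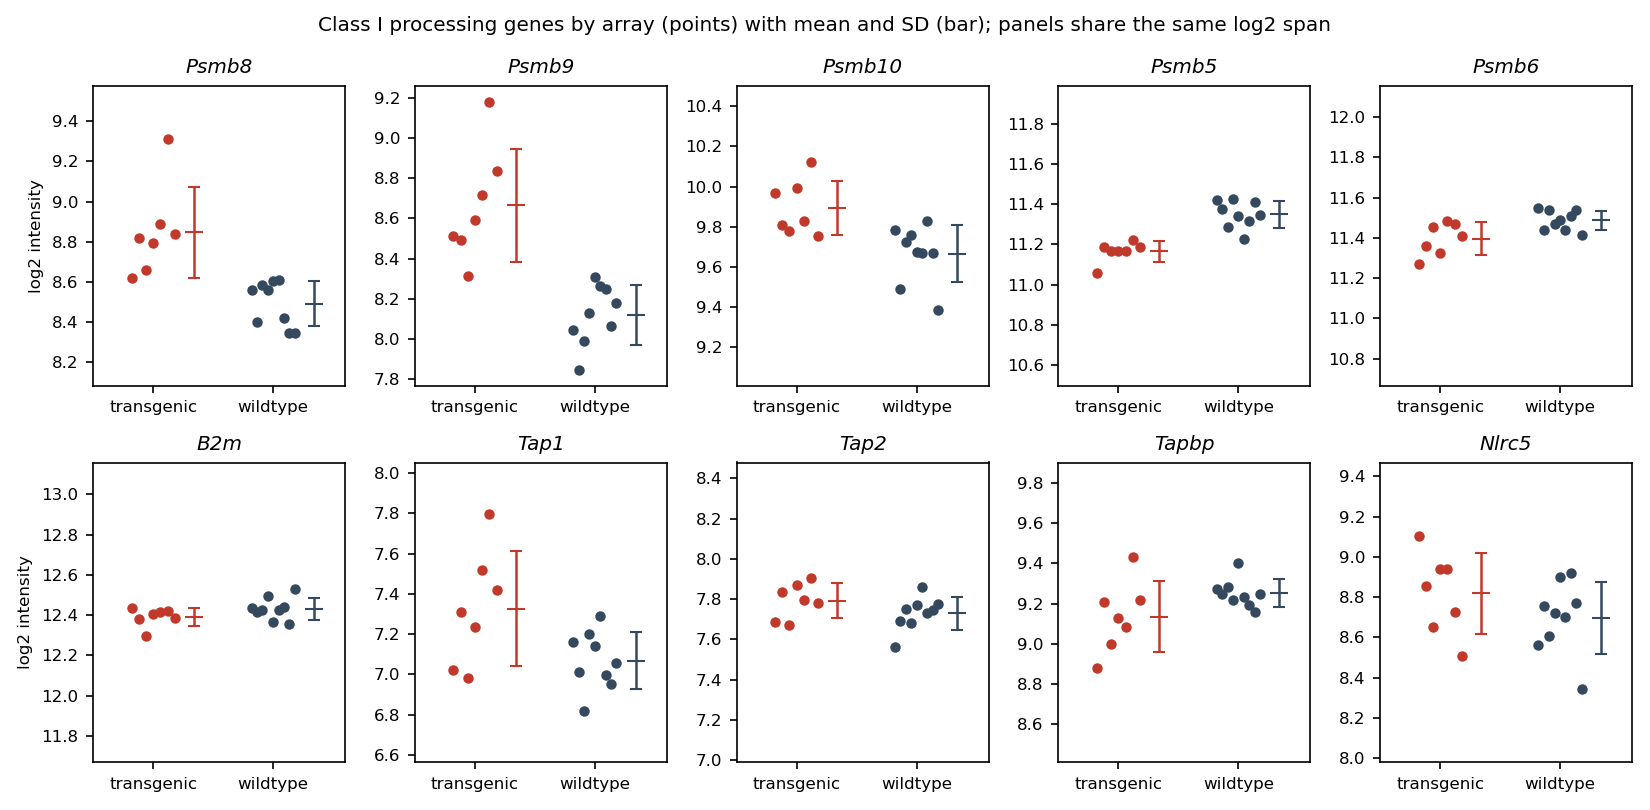
Log2 intensity of the 10 class I processing genes in each array (points; 7 transgenic in red on the left, 9 wildtype in dark blue on the right of each panel) with the group mean and SD as a bar; all panels span the same number of log2 units. Transgenic and wildtype arrays separate for Psmb8, Psmb9 and Psmb5 and overlap in the other panels.

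The comparison of inducible with constitutive subunits was made within each array, by subtracting the row of the constitutive subunit from that of its replacement and comparing these differences between the groups. The 2 rows of a pair have different probes, so only the change of the difference is read, not its level. For Psmb8 minus Psmb5 the values ran from -2.51 to -1.91 in transgenic livers and from -3.06 to -2.62 in wildtype livers. For Psmb9 minus Psmb6 they ran from -3.14 to -2.29 in transgenic livers and from -3.59 to -3.17 in wildtype livers. For Psmb10 minus Psmb7 they ran from -1.67 to -0.98 in transgenic livers and from -2.14 to -1.68 in wildtype livers, so that the lowest transgenic and the highest wildtype array nearly met. The groups did not overlap in any of the 3 pairs. How often other pairs of genes separate the groups was not computed, so this separation cannot be called rare.

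The balance shifted by 0.54 ± 0.0881 (SE of the difference of group means) for Psmb8 over Psmb5, by 0.63 ± 0.112 for Psmb9 over Psmb6 and by 0.42 ± 0.111 for Psmb10 over Psmb7. As ratios these are 1.45-fold, 1.55-fold and 1.34-fold. Each had a two-sided exact permutation p of 9e-05 over the 11440 splits of the arrays, the smallest that this design allows, and 9e-05 after adjustment over the 3 pairs. For Psmb8 over Psmb5 this p was fixed in advance, because each gene alone already separated the groups, in opposite directions. The pairs reuse the rows of the single genes, so they add no independent evidence to those calls. Leaving out any 1 array kept the shifts between 0.47 and 0.57, between 0.56 and 0.70 and between 0.35 and 0.47 for the 3 pairs in the same order. Averaged over the rows of each kind, with no test, the 3 inducible subunits were 0.38 higher and Psmb5 and Psmb6 0.14 lower in the transgenic livers.

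**Figure D2:**
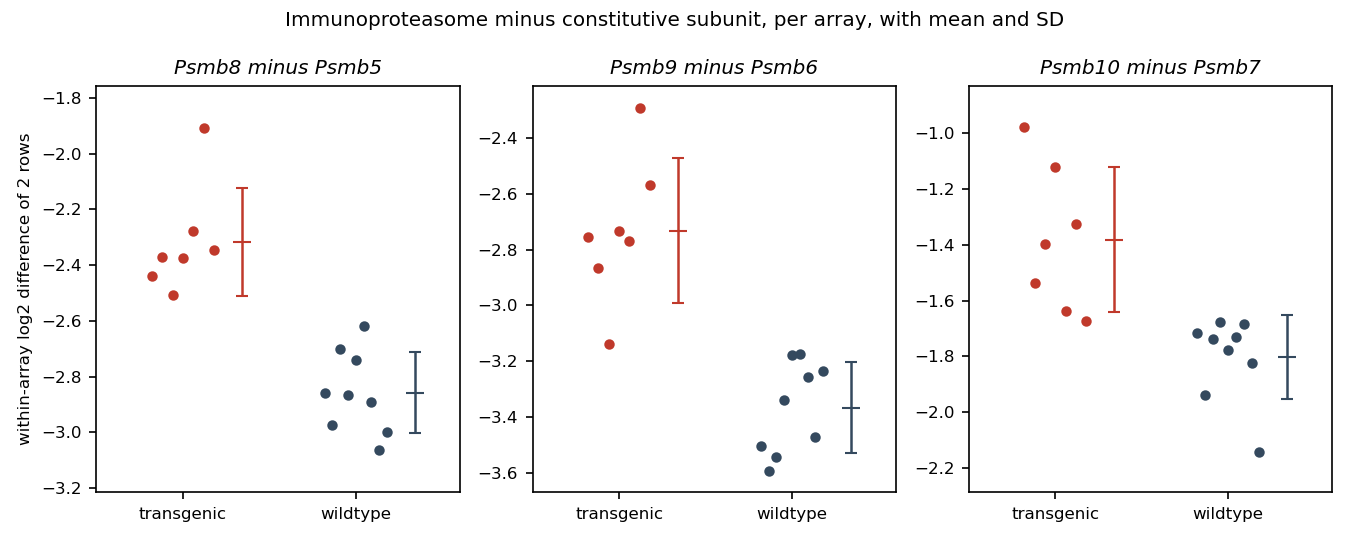
Within-array log2 difference of an inducible minus a constitutive catalytic subunit in each array (points; transgenic in red on the left, wildtype in dark blue on the right) with the group mean and SD as a bar; all panels span the same number of log2 units. The groups do not overlap in any panel, with the narrowest gap for Psmb10 minus Psmb7.

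Of the 10 genes, the 4 that act after the proteasome (Tap1, Tap2, Tapbp and B2m) were not called. Tap1, a chain of the peptide transporter that shares its promoter region with Psmb9, ranged from 6.98 to 7.80 with a median of 7.31 in transgenic livers, against 6.82 to 7.29 with a median of 7.05 in wildtype livers. Of the transgenic arrays 4 exceeded every wildtype array, while arrays 1 and 3 lay below the wildtype mean. The difference was 0.26 ± 0.103 with a 95% interval of 0.04 to 0.47 (limma adjusted p = 0.0955). Leaving out transgenic array 1 gave 0.31 (adjusted p = 0.0424) and leaving out array 3 gave 0.31 (adjusted p = 0.0384). Tap2, the other transporter chain, ranged from 7.67 to 7.91 in transgenic livers and from 7.56 to 7.86 in wildtype livers and differed by 0.06 ± 0.0485 (95% interval -0.04 to 0.16, limma adjusted p = 0.428).

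Tapbp encodes tapasin, which bridges the transporter and the heavy chain. Its levels in transgenic livers were 8.88, 9.13 and 9.43 (lowest, median, highest), against 9.16, 9.25 and 9.40 in wildtype livers. Array 6 was the highest of all 16 arrays, and 4 other transgenic arrays lay below every wildtype array. Tapbp differed by -0.12 ± 0.0619 (95% interval -0.25 to 0.02, limma adjusted p = 0.23), and by -0.16 without transgenic array 6, where it was called lower (adjusted p = 0.0375). B2m, the invariant light chain of class I molecules, ranged from 12.30 to 12.44 in transgenic livers and from 12.35 to 12.53 in wildtype livers. It differed by -0.04 ± 0.028 (95% interval -0.10 to 0.02, limma adjusted p = 0.376). After quantile normalization B2m was called lower at -0.09 (adjusted p = 0.0178). Its row stood at percentile 99.2 of the row means of the table.

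Nlrc5 encodes the transactivator that binds class I promoters, and its value depended on which array row was read. Several rows were found for 999 of the 19938 genes. Nlrc5 had 19, and the brightest had a mean of 8.75. That row ranged from 8.51 to 9.11 in transgenic livers and from 8.34 to 8.92 in wildtype livers and differed by 0.12 ± 0.0891 (95% interval -0.07 to 0.31, limma adjusted p = 0.404). The next brightest row had a mean of 7.27 and differed by 0.40 ± 0.11 (limma adjusted p = 0.0137). Of the 19 rows, 18 had a difference above 0, 6 were called higher and 0 lower, and the median difference was 0.20. Averaged over its rows, Nlrc5 was called higher at 0.20 ± 0.0675 (limma adjusted p = 0.0464). Rows annotated to the same gene are not replicates.

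**Figure D3:**
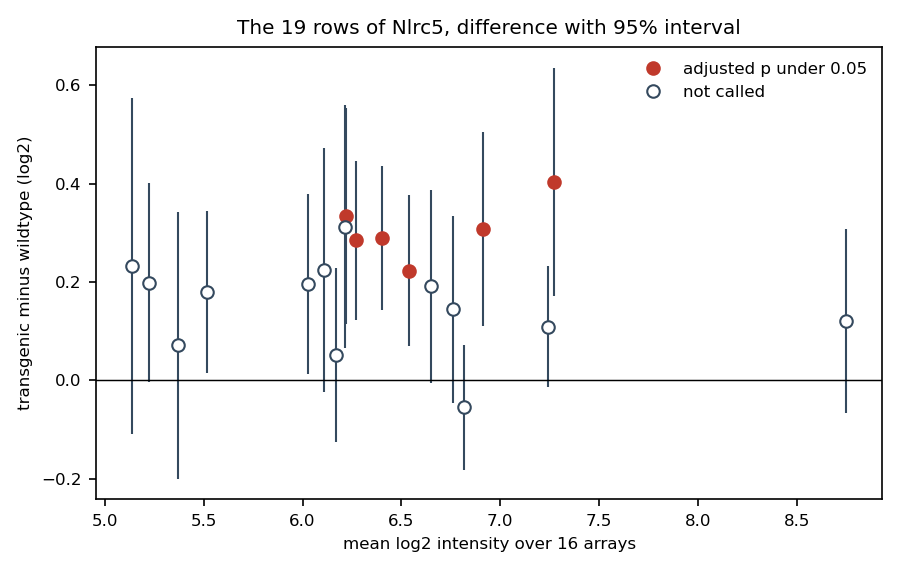
Difference between transgenic and wildtype arrays (log2, with its 95% interval) of each of the 19 rows annotated to Nlrc5, against the row's mean log2 intensity over 16 arrays; filled red points passed an adjusted p of 0.05. The brightest row, at 8.75, was not called, and 18 of 19 rows lie above 0.

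The rest of the proteasome was read from lists chosen by role. Of 12 other 20S core subunits, 0 were called higher and 3 lower, against 12.1% and 11.1% of all genes. The 3 called lower were Psma6 (-0.20 ± 0.046, limma adjusted p = 0.00412), Psmb7 and Psmb1 (-0.14 ± 0.0461, adjusted p = 0.0357). All 12 differences were below 0, with a median of -0.08 against -0.04 over all genes, while after quantile normalization 11 of 12 were below 0 and the median, -0.054, was close to the -0.056 over all genes. Only 1 was called without transgenic array 1 or 3, or without wildtype array 1, 3, 4 or 7. The fit mattered as well: 1 was called lower with limma without a trend and with the replicate number as a block, and 5 with array weights.

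The 19S particle, which recognises and unfolds ubiquitinated proteins, had 9 of 17 measured genes called lower and 1 called higher. Over all genes 11.1% were called lower and 12.1% higher. The median of the 19S list was -0.19, against -0.04 over all genes. Psmd12, a lid subunit, was 1.28-fold lower, with levels of 9.21 to 9.84 in transgenic livers and 9.96 to 10.1 in wildtype livers (-0.36 ± 0.0714, limma adjusted p = 0.00125). Psmd3, another lid subunit, was lower as well (-0.32 ± 0.0515, adjusted p = 0.000194) and Psmd14, the deubiquitinating lid subunit, 1.24-fold lower (-0.32 ± 0.0824, adjusted p = 0.0104). Psmd8 was the exception and was 1.26-fold higher (0.33 ± 0.0554, adjusted p = 0.000268). The number called lower was 9 without transgenic array 1, 9 after quantile normalization, 11 after centring arrays on their medians and 7 with the replicate number as a block. Of 10 hepatocyte markers, 4 were called lower and 1 higher, and their median of -0.05 was close to the -0.04 over all genes. Their mean log2 level was 12.53 to 12.65 in transgenic livers and 12.69 to 12.78 in wildtype livers. Their part in the lower proteasome values was not tested. In whole liver, fewer cells of a type and less RNA per cell cannot be told apart.

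Activators and assembly factors included 1 gene called lower and 0 called higher of 9, against 11.1% and 12.1% of all genes. The list's median was -0.10 as deposited, against -0.04 over all genes. After quantile normalization it was -0.065, close to the -0.056 over all genes. Psme3, which encodes the nuclear PA28 gamma cap, fell (-0.23 ± 0.0375, limma adjusted p = 0.000219). The genes for the interferon-inducible PA28 cap were not called: Psme1 differed by 0.10 ± 0.0411 (adjusted p = 0.0931) and Psme2 by -0.12 ± 0.0607 (adjusted p = 0.213). Without transgenic array 1, 1 gene of this list was called higher, and without transgenic array 6 or wildtype array 9, 2 were called lower.

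**Figure D4:**
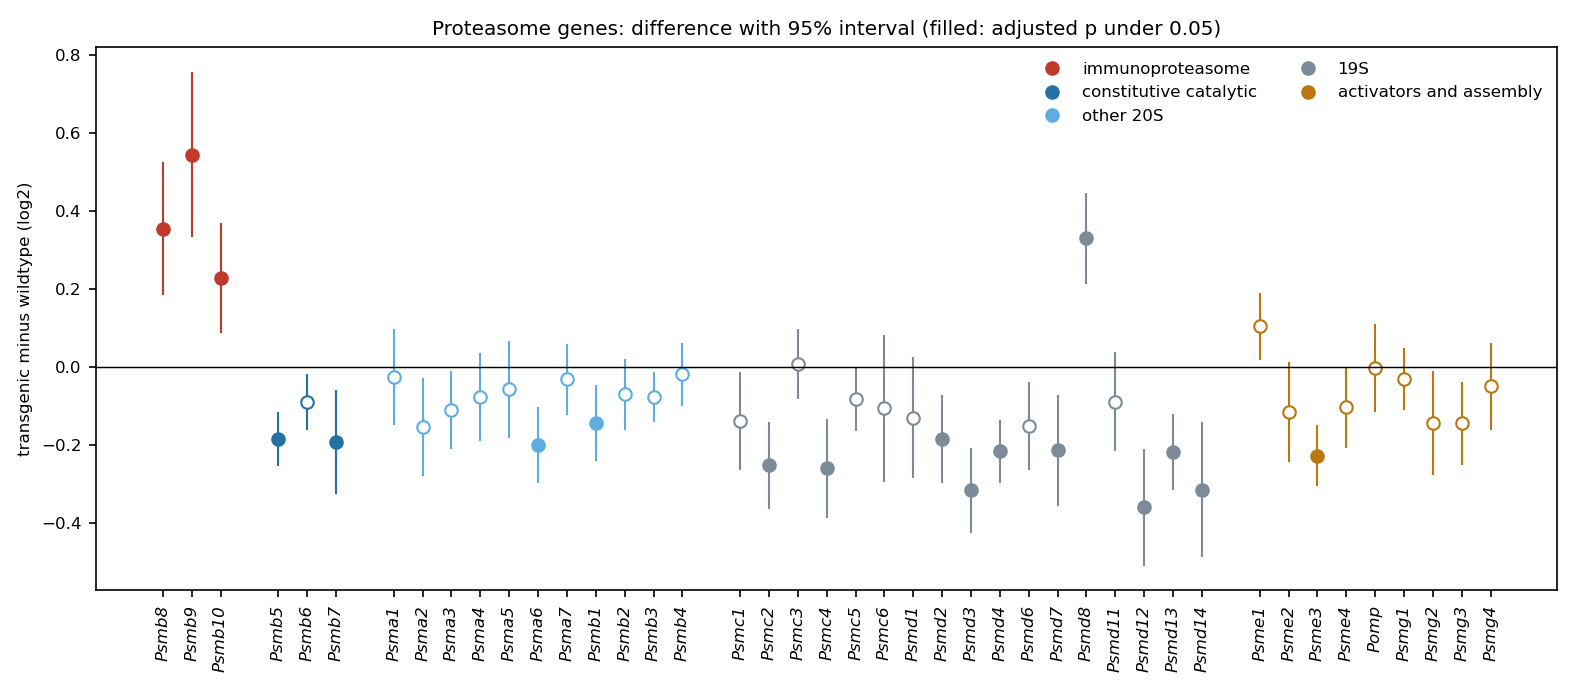
Difference between transgenic and wildtype livers (log2, with 95% interval) for proteasome genes grouped by role; filled points passed an adjusted p of 0.05 and open points did not. The 3 inducible subunits and Psmd8 are the filled points above 0, while 14 genes are filled below it.

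Heavy chains and other class I-like genes moved in both directions. Classical heavy chain genes such as H2-K1 and H2-D1 had no row with 1 symbol and are not analysed here, which left 8 of 15 listed genes. H2-M3, which presents formylated peptides, rose 1.51-fold (0.59 ± 0.0872, limma adjusted p = 7.19e-05), with 6.44 to 6.82 in transgenic livers and 5.68 to 6.28 in wildtype livers. Mr1, which presents vitamin B metabolites, rose 1.52-fold (0.60 ± 0.123, adjusted p = 0.00162). Cd1d1, which presents lipids to NKT cells, was 1.40-fold lower (-0.49 ± 0.0862, adjusted p = 0.000428). H2-Q10, a secreted class I protein made by hepatocytes, was 1.17-fold lower (-0.22 ± 0.0357, adjusted p = 0.000153). Of the 8 genes, 2 were thus called higher and 2 lower, against 12.1% and 11.1% of all genes, and 4 were not called. The list's median of 0.05 as deposited turned to -0.01 after quantile normalization. Genes of this family are near-identical in places, so their rows may share signal.

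Of 15 peptide loading and trimming partners, 1 was called higher and 1 lower, against 12.1% and 11.1% of all genes. The list's median of -0.04 was that over all genes. Wdfy4, required for cross-presentation by dendritic cells, rose 2.16-fold, with 6.29 to 6.72 in transgenic livers and 5.34 to 5.76 in wildtype livers (1.11 ± 0.0776, limma adjusted p = 8.89e-09). Calr, the endoplasmic reticulum chaperone calreticulin, fell (-0.16 ± 0.0414, adjusted p = 0.00902). Without transgenic array 1 or wildtype array 9, 2 were called higher, and without transgenic array 6 or wildtype array 4 or 7, 2 were called lower. The counts also moved with the processing. Quantile normalization gave 2 higher and 2 lower, centring arrays on their medians 1 and 3, and the replicate block 1 and 0. The trimming peptidase gene Erap1 differed by 0.00 ± 0.0488 (adjusted p = 0.98).

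Among 20 measured genes of class I transcription and interferon-gamma signalling, 7 were called higher and 1, Rfxap, lower. Over all genes 12.1% were called higher and 11.1% lower. The list's median was 0.16 as deposited, 0.12 after quantile normalization and 0.11 with arrays centred on their medians. Without transgenic array 1, 9 were called higher, and leaving out any 1 array gave 6 to 9. Centring the arrays gave 5 called higher, and so did the replicate block. Irf8, a factor of myeloid and dendritic cells, rose 1.63-fold (0.71 ± 0.0623, limma adjusted p = 1.76e-07). Ifngr1 and Ifngr2, the chains of the interferon-gamma receptor, rose 1.54-fold (0.62 ± 0.078, adjusted p = 1.22e-05) and 1.26-fold (0.34 ± 0.0628, adjusted p = 0.000722). Ciita, the class II counterpart of Nlrc5, rose 1.34-fold (0.42 ± 0.0696, adjusted p = 0.000247). Irf1, an inducer of Psmb9 and Tap1, ranged from 7.06 to 8.08 in transgenic livers and from 6.95 to 7.77 in wildtype livers and was not called (0.20 ± 0.142, adjusted p = 0.39). Ifng itself differed by -0.05 ± 0.109 (adjusted p = 0.819).

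Leukocyte markers were also higher in the transgenic livers. Of 12 leukocyte markers, 11 were called higher and none lower by limma, against 12.1% and 11.1% of all genes. Their mean log2 level was 7.62 to 8.10 in transgenic livers and 6.69 to 7.18 in wildtype livers. Ptprc, the common leukocyte antigen, was 1.96-fold higher (0.97 ± 0.0905). In the T and NK cell list 3 of 10 were called higher, with a mean of 4.69 to 4.94 in transgenic livers and 4.48 to 4.71 in wildtype livers, and only Klrb1c lay below the 20th percentile of the table (3.45) in both groups. All 8 stromal markers were called higher, and of 6 sinusoidal endothelial markers 1 was called higher and 4 lower. The part of these cells in the rise of Psmb8, Psmb9 and Psmb10 was not tested.

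Some of the genes also varied together among livers of the same group. After the group mean was subtracted, all 45 pairs of the 10 genes were correlated over the 16 arrays, and 3 pairs passed an adjusted p of 0.05 (permutation within groups, adjusted over the 45). For Tap1 and Psmb9, the divergent pair shown above, Pearson's r was 0.81 (permutation p = 0.0012) and Spearman's rho 0.69 (permutation p = 0.00766). For Tap1 and Psmb8, r was 0.81 (permutation p = 0.00094) and rho 0.72 (permutation p = 0.00274). For Tapbp and Psmb8, r was 0.83 (permutation p = 0.00065) and rho 0.66 (permutation p = 0.00807). The adjusted p was 0.018 for each of these pairs. The share of all gene pairs with an r this high was not computed. Deviations were also ranked by r among 11556 genes with a mean above the median of the table. Psmb9 ranked 5 for Tap1, and Tap1 ranked 15 for Psmb9. Psmb8 ranked 3 for Tap1, and Tap1 ranked 6 for Psmb8. For Tapbp, Psmb8 ranked 13, and for Psmb8, Tapbp ranked 5. Other genes thus had a higher r in each case. Without the 2 arrays farthest from the median of the first gene of each pair, r was 0.57, 0.62 and 0.57 in that order.

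**Figure D5:**
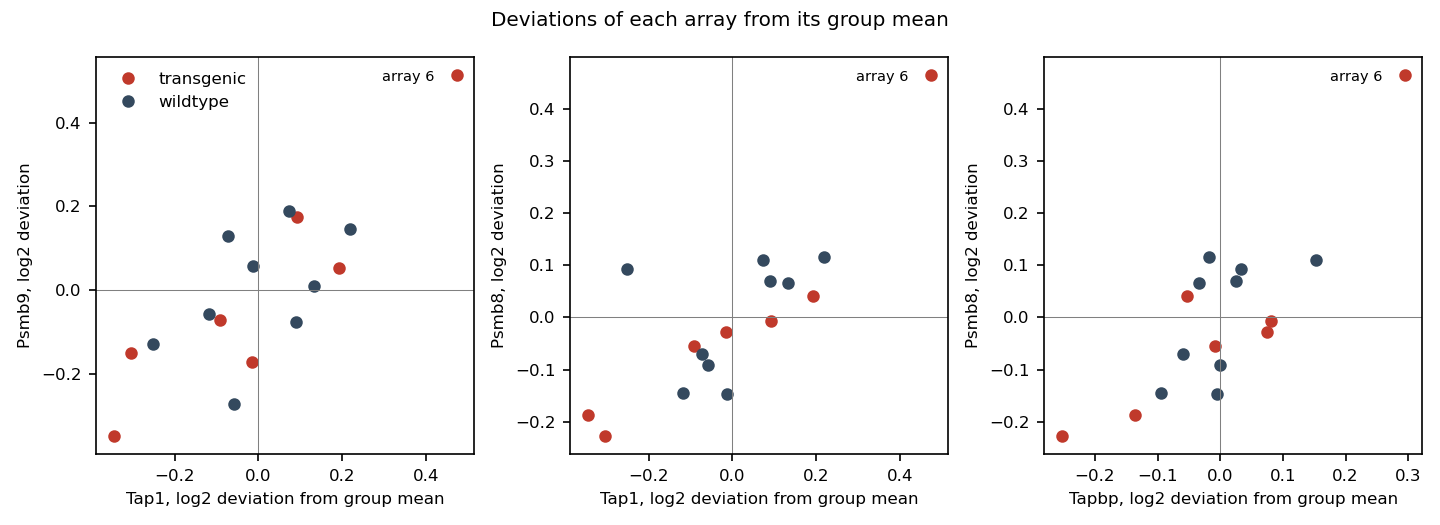
Log2 deviation of each array from its group mean for 3 pairs of genes (transgenic in red, wildtype in dark blue). Transgenic array 6 is at the upper right in each panel, and r over the 16 arrays is 0.81, 0.81 and 0.83.

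In the transgenic arrays alone r was 0.92 for Tap1 and Psmb9, 0.94 for Tap1 and Psmb8 and 0.90 for Tapbp and Psmb8. In the wildtype arrays alone it was lower, at 0.49, 0.42 and 0.58 in that order. The correlations within 1 group were not tested. Among 11556 genes with a mean above the median of the table, the deviations most like those of Psmb9 were those of Ifih1, a sensor of viral RNA (r = 0.87), Parp12, an interferon-stimulated gene (r = 0.87), Tpmt (r = 0.85), Izumo4 (r = 0.85) and Blmh, a peptidase of the trimming list (r = 0.84). None of these 5 was called between the groups (limma adjusted p from 0.0893 to 0.326). For the brightest Nlrc5 row the 5 most alike were Col11a2, Gad1, Mir194-1, Ager and Lingo4, with r from 0.89 to 0.92. No class I processing gene was among them.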

How the data were processed

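RNA of 16 liver samples was measured on 1-colour Affymetrix gene arrays (Mouse Gene 1.0 ST). The authors deposited log2 values made with GCRMA (background correction, normalization between arrays and probe summary), per the submitters' processing notes. Its version and settings and the log base are not given in the sources used here, and base 2 was read from the range of 0.710 to 14.7. Sample titles gave the groups. Of 35557 rows, 21789 had 1 gene symbol, and the brightest row stood for each of 19938 genes. The comparison used limma 3.58.1 under R 4.3.3 (lmFit, eBayes with trend, two-sided, no filter), adjusted by Benjamini-Hochberg over all rows. The fit was tested on simulated data. Pair and correlation tests used permutations (100000 within groups for correlations) in Python 3.11.15. Replicate numbers in the titles were shared by both groups, but same-numbered arrays did not deviate together (r from -0.02 to 0.09), and no block was used. The number of arrays limits the precision.

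The members and lists were chosen with earlier results of these data known. Named list genes were up to 4 called genes per list by size, plus Psmb7, Psme1, Psme2, Irf1, and the 5 genes most like Psmb9 and Nlrc5; Erap1, Ifng, Rfxap and the markers named were added after their values were seen. H2-K1, due under that rule, had no row with 1 symbol, and 1 other gene of the rule is not reported here. Alternatives were quantile normalization, median centring, eBayes without trend or robust, array weights, filters on rows, values floored at the 20th percentile, averaging a gene's rows, a replicate block and leaving out each array.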

Additional observations from a re-analysis of the deposited data

Results flagged for a closer look

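In 26 sets of values, those of the 10 genes and 3 subunit pairs in each group, 4 had an array at one end that lay far from the others relative to the group's range. Chance gives about 1 in 20 for a single set. The pairs reuse rows of the genes, so the 26 sets are not independent and the 4 cannot be weighed against that rate. Psmb8 in transgenic array 6 was 9.31, against 8.89 in the next transgenic array. Psmb8 minus Psmb5 in the same array was -1.91, against -2.28 in the next. Psmb5 in transgenic array 1 was 11.06, against 11.17, and B2m in transgenic array 3 was 12.30, against 12.38. Without transgenic array 6 Psmb8 differed by 0.28 (limma adjusted p = 0.00262) and without transgenic array 1 Psmb5 differed by -0.17 (adjusted p = 0.000806), so both calls remained.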

How the results depend on the processing

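Psmb8, Psmb9 and Psmb5 kept their direction and call under all 10 alternatives and without any 1 array, and the 3 pairs kept theirs under the 5 that apply to them. The number of genes called lower was 2 in place of 1 after quantile normalization (B2m added), with arrays centred (Psmb6 added) and on rows above the median level (Psmb6 added, adjusted p = 0.0498). Without 1 array at a time, 2 to 4 were called higher and 1 to 2 lower (2 without transgenic array 5 or 6). Psmb7 lost its call in 13 of 26 settings. Centring moved the rows called over the table to 2873 higher and 4688 lower, against 3785 and 2936 as deposited. With the replicate block, which the arrays did not bear out as a pairing, 2 genes were called higher and 1 lower, Psmb10 stood at 0.19 (adjusted p = 0.0645), and the 3 pairs shifted by 0.49, 0.64 and 0.37 (exact sign-flip p = 0.0156 each, the smallest possible). No array of the transgenic group correlated best with its own number. The cause of these moves was not tested.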

Other observations

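Cross-presenting dendritic cells load captured antigen onto class I molecules. Of 8 markers of dendritic cells in general, 5 were called higher and none lower by limma, against 12.1% and 11.1% of all genes. Their mean log2 level was 5.37 to 5.54 in transgenic livers and 4.77 to 5.09 in wildtype livers. Xcr1, the chemokine receptor of cross-presenting cells, ranged from 4.44 to 5.05 in transgenic livers, against 3.57 to 4.05 in wildtype livers (0.91 ± 0.0904, limma adjusted p = 8.67e-07). Clec9a, their receptor for dead cells, was higher too (0.75 ± 0.0947, adjusted p = 1.29e-05), and Itgax rose 1.87-fold. Batf3 and Zbtb46, factors of the dendritic cell lineage, differed by 0.16 ± 0.0713 and 0.01 ± 0.0505 and were not called (adjusted p = 0.149 and 0.951). Ccr7 was not called either (0.11 ± 0.0778, adjusted p = 0.39).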
